A study of Mus musculus with 12 samples.

Results

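The EGF receptor family and its ligands were followed as 10 genes, 6 ligand genes (Egf, Areg, Ereg, Hbegf, Tgfa and Btc) and 4 receptor genes (Egfr, Erbb2, Erbb3 and Erbb4), chosen by name among the 46403 genes counted in RNA from mouse kidney. All 10 were listed, and 9 had enough counts to be tested, Ereg being the exception. The series, by its title, concerns renal cyst growth and Grhl2, which encodes an epithelial transcription factor. Its 12 libraries held polyadenylated RNA of the entire right kidney. The Grhl2KO_Myc group (n = 4) is labelled as Grhl2 knockout with Myc overexpression, bred by crossing HoxB7-Cre; Grhl2flox/+ mice to R26StopFLMYC; Grhl2flox/flox mice. HoxB7-Cre is active in the ureteric bud and in the collecting duct that grows from it, and a whole kidney holds many cells of other origin. The Myc group (n = 3) is labelled as Myc overexpression, with no statement of its Cre driver or Grhl2 alleles. Its sample titles hold the letters HET, where those of the other groups hold KO and WT. What HET refers to is not stated, so a changed Grhl2 allele in the Myc group is possible. The mice called wildtype (n = 5) carried R26StopFLMYC, a MYC transgene held silent by a stop cassette, and Grhl2 flox/flox, so that both floxed alleles are present in the controls too. The labels give no age and do not say that each library is a different mouse, so p-values measure the spread between these samples, which may be technical in part. Each group held libraries high in the Y-linked Ddx3y and libraries high in Xist, so no group came from a single mouse.

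Ligands of the EGF family are made as membrane proteins and released by proteases. EGF, amphiregulin and TGF-alpha bind the EGF receptor (Egfr), HB-EGF, betacellulin and epiregulin bind Egfr and ErbB4, and the neuregulins bind ErbB4 and some of them also ErbB3. ErbB2 has no known ligand of its own and pairs with the other receptors, while ErbB3 has little kinase activity and depends on its partner to signal to PI3 kinase. In the kidney EGF is made mainly by the thick ascending limb and the distal convoluted tubule, where it acts on the magnesium channel Trpm6, and EGF receptor signalling is long known from the cyst epithelium of polycystic kidneys.

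The series as a whole was checked before the members were read. Total counts per library ranged from 75187006 to 108164810 for Grhl2KO_Myc, from 70608817 to 101043826 for Myc and from 52973520 to 98713157 for wildtype. Grhl2 itself averaged 21.04 ± 2.78 CPM (counts scaled to library size with TMM factors) in Grhl2KO_Myc, 29.9 ± 2.71 CPM in Myc and 25.8 ± 2.04 CPM in wildtype (SD), a log2 fold change of -0.51 for Grhl2KO_Myc over Myc (edgeR adjusted p = 0.0443) and of -0.29 over wildtype (adjusted p = 0.0816). Counts at the mouse Myc gene were at 30.1 ± 2.23, 23.6 ± 4.24 and 26.7 ± 6.06 CPM in the same order of groups, with no adjusted p under 0.05. Markers of kidney tubules, glomeruli and vessels were present in every group. Grhl2KO_Myc 3, Grhl2KO_Myc 4 and wildtype 4 stood apart by low proximal tubule transcripts, with a score over 15 markers (mean log2 CPM relative to the 12 libraries) of -1.27, -1.16 and -1.46, against -0.08 to 0.82 in the other 9 libraries. The Y-linked gene Ddx3y was above 10 CPM in Grhl2KO_Myc 1 and 4, Myc 3 and wildtype 5, and Grhl2KO_Myc 3 had neither Ddx3y nor Xist above 1 CPM, so sex was not balanced between groups.

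Of the 9 members tested, 3 were lower in Grhl2KO_Myc than in wildtype kidneys and 0 were higher (edgeR adjusted p under 0.05 over all genes). The receptors Erbb3 and Egfr and the ligand Tgfa fell, by 1.77-fold, 1.34-fold and 1.35-fold. Among all 23742 genes tested 6.67% were called in this comparison, 2.61% lower and 4.06% higher. In whole kidney, fewer cells of a type and less RNA per cell cannot be told apart. Against Myc kidneys only Erbb3 fell, by 2.02-fold, where 0.842% of all genes were called, 0.484% lower and 0.358% higher. No member differed between Myc and wildtype kidneys at that threshold. The median log2 fold change of the 9 members was -0.42 for Grhl2KO_Myc over wildtype, -0.32 for Grhl2KO_Myc over Myc and -0.07 for Myc over wildtype, while the median over all genes was -0.01, 0.00 and 0.00. The same 4 Grhl2KO_Myc libraries enter both of their comparisons, so these are not independent of each other. All Grhl2KO_Myc libraries lay below all wildtype libraries for the same 3 members and above them for 0, while 3.81% of all genes were lower without overlap, 5.67% higher and 9.47% either. Against Myc they lay below for 6 members (Erbb3, Egfr, Erbb2, Erbb4, Tgfa and Egf) and above for 0, while 7.89% of all genes were lower without overlap, 8.95% higher and 16.8% either.

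Promoter sequences from RefSeq (build GRCm38.p6) covered 7 of the 10 members, with 8 start sites between them, and Erbb3, Hbegf and Ereg had no entry. Those of Tgfa and Egfr are shown because they are the called members with an entry. The 250 bases before each start are given, 5′ to 3′ on the strand of the gene, from chr6:86194972-86195221 (plus strand, 69.2% G and C) for Tgfa and from chr11:16751953-16752202 (plus strand, 60.8% G and C) for Egfr. No base is in capitals, since no searched motif was found in them.
Tgfa: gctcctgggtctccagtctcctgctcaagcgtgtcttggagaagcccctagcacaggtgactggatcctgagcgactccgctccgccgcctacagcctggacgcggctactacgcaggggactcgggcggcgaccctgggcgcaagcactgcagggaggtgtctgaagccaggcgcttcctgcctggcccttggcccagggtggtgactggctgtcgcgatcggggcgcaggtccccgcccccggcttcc
Egfr: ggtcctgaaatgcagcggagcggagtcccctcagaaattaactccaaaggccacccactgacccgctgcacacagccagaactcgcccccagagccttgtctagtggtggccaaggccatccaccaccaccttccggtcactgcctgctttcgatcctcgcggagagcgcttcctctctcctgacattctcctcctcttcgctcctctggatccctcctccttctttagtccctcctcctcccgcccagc
The motifs were AACCGGTT and AACTGGTT, bound by grainyhead factors such as Grhl2, and the E-box CACGTG, bound by Myc, on both strands, in windows that run on for 50 bases past the start. None of the 8 windows of the members held any of them. Among the 32851 windows of all genes, 0.146% held AACCGGTT, 0.776% held AACTGGTT and 7.15% held CACGTG. No stretch can match more than 1 of these motifs in full, and a missing match says only that these letters are not in these windows.

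Erbb3 (ENSMUSG00000018166.8, chromosome 10, 128567523 to 128589652, minus strand, mm10), a neuregulin receptor that depends on its partner to signal, showed the clearest separation. In order of replicate number its level was 32.8, 34.2, 35.0 and 28.7 CPM in Grhl2KO_Myc. In Myc its level was 62.2, 74.7 and 61.2 CPM, and in wildtype 63.3, 57.6, 60.8, 51.4 and 55.5 CPM. All 4 Grhl2KO_Myc libraries lay well below the lowest library of either other group, while Myc and wildtype overlapped. The log2 fold change of Erbb3 was -0.82 for Grhl2KO_Myc over wildtype (SE 0.083, edgeR adjusted p = 0.000207), the 38th smallest p of all genes. It was -1.01 for Grhl2KO_Myc over Myc (SE 0.092, adjusted p = 0.000282), the 8th smallest. Without the 3 libraries low in proximal tubule transcripts these log2 fold changes were -0.83 (adjusted p = 0.00152) and -0.98 (adjusted p = 0.00127), so the drop was as large without them. With single libraries left out they lay between -0.86 and -0.76 against wildtype and between -1.07 and -0.92 against Myc, and the call held each time. Myc over wildtype gave 0.19 for Erbb3 (SE 0.088, adjusted p = 0.999, unadjusted p = 0.048).

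Egfr (ENSMUSG00000020122.16, chromosome 11, 16752203 to 16918158, plus strand), the receptor shared by the EGF-like ligands, was at 17.0, 17.9, 15.9 and 13.8 CPM in Grhl2KO_Myc. It was at 20.6, 24.7 and 18.6 CPM in Myc and at 23.2, 20.97, 25.2, 18.2 and 20.5 CPM in wildtype. Every Grhl2KO_Myc library was below every library of the other groups, though the gap between 17.9 CPM in Grhl2KO_Myc and 18.2 CPM in wildtype was narrow. Egfr fell against wildtype by edgeR (log2 fold change -0.42, SE 0.11, adjusted p = 0.044), while against Myc it gave -0.40 (SE 0.13, adjusted p = 0.185). The call against wildtype rested on most single libraries. Its adjusted p became 0.0709, 0.104 and 0.127 without Grhl2KO_Myc 1, 3 and 4, and 0.0641 without Myc 1. It became 0.0969, 0.0754, 0.0988 and 0.0615 without wildtype 1, 2, 3 and 5. The kit marks no strand, so reads of genes on the opposite strand cannot be told apart from the member where exons overlap. Such genes include Egfros within Egfr, Gm43917 within Tgfa, Mien1 at the end of Erbb2 and 3 genes that overlap Egf. Genes on the same strand lie within Erbb4, with the same limit.

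Erbb2 (chromosome 11, 98412470 to 98437716, plus strand), the partner receptor without a ligand, was at 94.5, 93.7, 108 and 109 CPM in Grhl2KO_Myc. It was at 113, 117 and 113 CPM in Myc, and at 113, 112, 107, 120 and 107 CPM in wildtype. The Grhl2KO_Myc libraries lay below all Myc libraries but reached into the wildtype range, and Grhl2KO_Myc 1 and 2 were the lowest. Erbb2 had a log2 fold change of -0.14 over wildtype (SE 0.057, edgeR adjusted p = 0.171) and -0.17 over Myc (SE 0.065, adjusted p = 0.273), neither past the threshold. With the proximal tubule score as covariate Erbb2 passed in both, at -0.20 (adjusted p = 0.00846) and -0.25 (adjusted p = 0.0226). Without the 3 libraries low in proximal tubule transcripts, which included the higher pair of Grhl2KO_Myc libraries, both passed at -0.23 (adjusted p = 0.013) and -0.28 (adjusted p = 0.0184).

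Erbb4 (chromosome 1, 68032186 to 69108059, minus strand), the receptor for neuregulins and for the ligands shared with Egfr, was at 37.1, 40.1, 34.1 and 33.2 CPM in Grhl2KO_Myc. It was at 43.5, 46.0 and 43.0 CPM in Myc and at 50.01, 46.5, 48.9, 31.3 and 44.7 CPM in wildtype. The value of 31.3 CPM belongs to wildtype 4, the wildtype library low in proximal tubule transcripts, and the other 4 wildtype libraries were all above Grhl2KO_Myc. Erbb4 did not pass against wildtype (log2 fold change -0.29, SE 0.12, edgeR adjusted p = 0.157) or against Myc (-0.29, SE 0.13, adjusted p = 0.361). Without wildtype 4 the adjusted p for Erbb4 was 0.00186 against wildtype, with a log2 fold change of -0.40, and 0.0433 against Myc, with -0.29. With the proximal tubule score as covariate the differences of Erbb4 were smaller, at -0.16 over wildtype (adjusted p = 0.267) and -0.12 over Myc (adjusted p = 0.594). Without all 3 libraries low in proximal tubule transcripts Erbb4 gave -0.30 over wildtype (adjusted p = 0.0175) and -0.20 over Myc (adjusted p = 0.156).

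**Figure D1:**
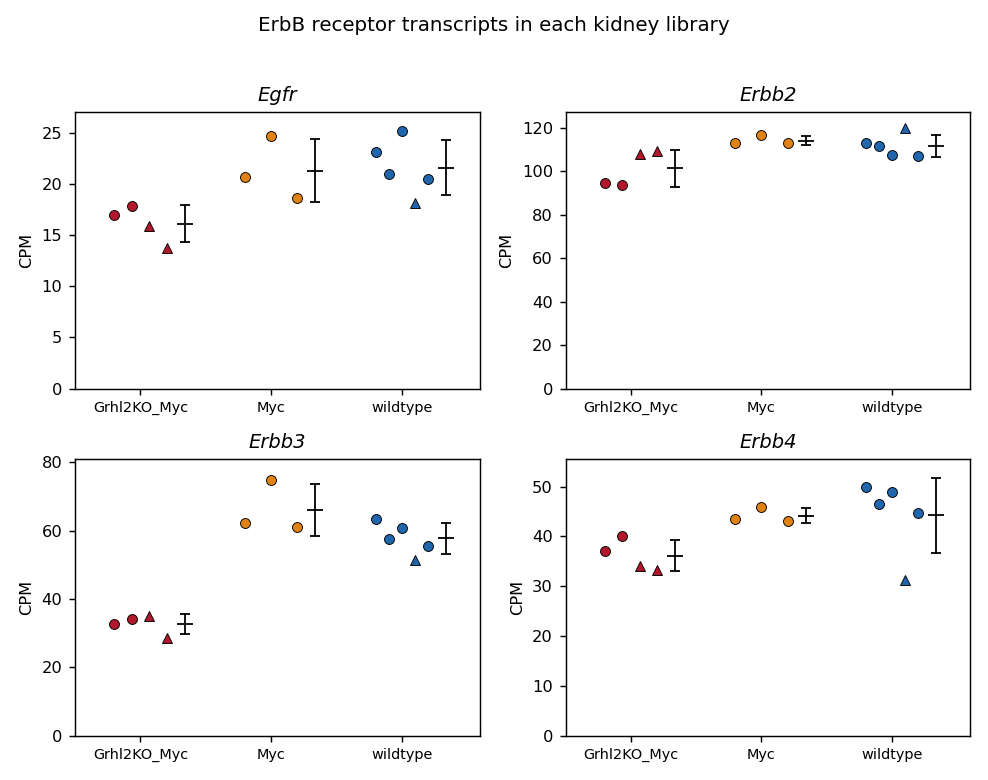
TMM-scaled CPM of the receptor genes in each library (y axis, from 0) by group (x axis). Points are libraries, triangles the 3 libraries low in proximal tubule transcripts, and the bar beside each group is the mean ± SD. Erbb3 lies between 28.7 and 35.0 CPM in Grhl2KO_Myc and at 51.4 CPM or above elsewhere.

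Tgfa (ENSMUSG00000029999.14, chromosome 6, 86195223 to 86275719, plus strand), which encodes TGF-alpha, a ligand of Egfr, was at 15.6, 16.6, 15.7 and 15.8 CPM in Grhl2KO_Myc. It was at 20.7, 19.8 and 19.2 CPM in Myc and at 24.6, 21.4, 19.4, 21.01 and 21.2 CPM in wildtype. Tgfa was the steadiest member within Grhl2KO_Myc, with an SD of 2.93% of its mean, and all 4 of these libraries lay below every other library. Tgfa had a log2 fold change of -0.43 over wildtype (SE 0.067, edgeR adjusted p = 0.00292), and the call held with each single library left out (adjusted p from 0.00185 to 0.0139). Over Myc it was -0.32 (SE 0.076, adjusted p = 0.0804). That missed the threshold, and it passed without wildtype 1 (0.0416) or wildtype 4 (0.045), which enter the shared estimate of spread, with only the 2 groups in the fit (0.0443) and with DESeq2 (0.00565). For Myc over wildtype Tgfa gave a log2 fold change of -0.11 (SE 0.073, adjusted p = 0.999).

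Btc (chromosome 5, 91357261 to 91402994, minus strand) encodes betacellulin, a ligand of Egfr and ErbB4. It was at 14.7, 14.1, 21.8 and 15.9 CPM in Grhl2KO_Myc, at 26.1, 28.9 and 19.4 CPM in Myc and at 23.98, 24.4, 30.9, 38.9 and 19.1 CPM in wildtype. Grhl2KO_Myc 3 alone reached into the range of the other groups, and the highest value of all was that of wildtype 4. Btc gave a log2 fold change over wildtype of -0.72 (SE 0.20, edgeR adjusted p = 0.0546) and over Myc of -0.57 (SE 0.23, adjusted p = 0.295). The adjusted p against wildtype was 0.0429 without Grhl2KO_Myc 3, 0.0313 without wildtype 5, 0.0343 without the 3 libraries low in proximal tubule transcripts, 0.0484 with a filter of 1 CPM and 0.00481 with DESeq2. With the proximal tubule score added as a covariate the log2 fold change of Btc was -0.90 over wildtype (adjusted p = 0.00589).

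Egf (ENSMUSG00000028017.7, chromosome 3, 129677565 to 129755316, minus strand), the ligand that names the family, had its 3 lowest values in the 3 libraries low in proximal tubule transcripts. It was at 8.36, 7.16, 4.67 and 4.65 CPM in Grhl2KO_Myc, at 10.6, 10.6 and 8.41 CPM in Myc and at 10.4, 13.8, 15.2, 3.92 and 11.8 CPM in wildtype. Every Grhl2KO_Myc library was below every Myc library, while wildtype 4 was the lowest of all 12. Egf did not pass against wildtype (log2 fold change -0.83, SE 0.32, edgeR adjusted p = 0.147) or against Myc (-0.67, SE 0.35, adjusted p = 0.452). Without wildtype 4 the log2 fold change over wildtype was -1.05 (adjusted p = 0.00436), and without all 3 such libraries it was -0.73 (adjusted p = 0.0231), with -0.35 over Myc (adjusted p = 0.315). With the score added as a covariate it was -0.32 (adjusted p = 0.224) over wildtype and -0.15 (adjusted p = 0.751) over Myc, in both a smaller difference than without the score.

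The segments that make EGF were read by their markers. Thick ascending limb markers were low in the libraries where Egf was lowest, while wildtype 4 was within the wildtype range for distal convoluted tubule markers. The summed CPM of 10 thick ascending limb markers was 1372, 1325, 1055 and 1010 in Grhl2KO_Myc, 1403 to 1696 in Myc and 1119 to 1789 in wildtype, where 1119 was wildtype 4. Of these 10 markers 0 passed against wildtype (edgeR, 7 lower at an unadjusted p under 0.05), while 4 passed with DESeq2, 7 without wildtype 4 and 2 without the 3 libraries low in proximal tubule transcripts, all lower in Grhl2KO_Myc. The summed CPM of 10 distal convoluted tubule markers was 569 to 859 in Grhl2KO_Myc, 873 to 930 in Myc and 843 to 1071 in wildtype, and 1 of the 10 passed, Klhl3, lower in Grhl2KO_Myc, against 6 with DESeq2 and 3 without wildtype 4. No marker of either list was at 0 in all 12 libraries, although the distal convoluted tubule marker Pvalb was close to it at 0.0225 ± 0.0268 CPM in Grhl2KO_Myc (n = 4) and 0.142 ± 0.112 CPM in wildtype (n = 5). Summed proximal tubule markers, 15 of 15, were at 1406 to 3619 CPM in Grhl2KO_Myc, 3262 to 4315 CPM in Myc and 1242 to 4993 CPM in wildtype. The part of these shifts in the values of Egf and Erbb4 was not tested beyond the fit with the proximal tubule score.

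Markers of other cell types also differed between the groups. Of 7 podocyte markers 3 were lower in Grhl2KO_Myc than in wildtype (Nphs1, Podxl and Ptpro; 5 with DESeq2 or without wildtype 4), and their sum was 720 to 796 CPM in Grhl2KO_Myc, 776 to 953 CPM in Myc and 973 to 1053 CPM in wildtype. Of 7 endothelial markers 3 were lower (Flt1, Kdr and Tek; 5 with DESeq2), with sums of 630 to 659 CPM in Grhl2KO_Myc, 650 to 692 CPM in Myc and 697 to 762 CPM in wildtype. In the collecting duct, where the Cre is active, principal cell markers went both ways. Of 10, 3 were lower in Grhl2KO_Myc than in either other group (Aqp4, Avpr2 and Elf5), and so was the intercalated cell marker Aqp6. Over wildtype, 5 of the 10 lay above 0 and 5 below, with 4 each way at an unadjusted p under 0.05 (edgeR). By adjusted p edgeR called 0 higher, while DESeq2 called 2 higher (Aqp3 and Hsd11b2) and 4 lower. Without wildtype 4, 4 were higher (Aqp3, Gata3, Hsd11b2 and Scnn1g) and 4 lower. Elf5, a transcription factor gene of principal cells, averaged 5.75 ± 0.850 CPM in Grhl2KO_Myc, 25.4 ± 2.68 CPM in Myc and 21.5 ± 1.41 CPM in wildtype. The summed principal cell markers overlapped between all groups, at 736 to 880 CPM in Grhl2KO_Myc, 801 to 929 CPM in Myc and 653 to 1010 CPM in wildtype. The intercalated cell marker Atp6v0d2 was lower in Grhl2KO_Myc than in Myc. Foxi1, a regulator of intercalated cells, and Ptprc, a leukocyte marker, were higher in Grhl2KO_Myc than in wildtype. Foxi1 had its highest mean in Myc, at 41.7 CPM, against 35.6 CPM in Grhl2KO_Myc and 22.9 CPM in wildtype. For Myc over wildtype its log2 fold change was 0.87 (edgeR adjusted p = 0.313). DESeq2 called Foxi1, Atp6v0d2 and Atp6v1g3 higher there. Summed intercalated cell markers were 184 to 248 CPM in Grhl2KO_Myc, 305 to 360 CPM in Myc and 139 to 293 CPM in wildtype. The part of these cell types in the values of Erbb3, Egfr and Tgfa was not tested.

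Hbegf (chromosome 18, 36504927 to 36515805, minus strand), which encodes HB-EGF, a ligand of Egfr and ErbB4, was at 17.6, 14.7, 14.9 and 12.1 CPM in Grhl2KO_Myc. It was at 15.7, 13.4 and 15.5 CPM in Myc and at 15.2, 15.1, 18.7, 14.4 and 14.8 CPM in wildtype. The ranges of the groups overlapped, although the lowest library of all was Grhl2KO_Myc 4. For Hbegf the log2 fold change was -0.08 over wildtype (1.96 SE either side, -0.30 to 0.14, edgeR adjusted p = 0.724) and -0.01 over Myc (-0.25 to 0.24, adjusted p = 0.985).

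Areg and Ereg, the genes of amphiregulin and epiregulin, were barely detected in whole kidney. Areg had 22, 21, 14 and 7 counts in Grhl2KO_Myc, 6, 6 and 14 counts in Myc and 5, 13, 13, 6 and 14 counts in wildtype. Its log2 fold change was 0.34 over wildtype (SE 0.47, edgeR adjusted p = 0.72) and 0.91 over Myc (SE 0.55, adjusted p = 0.511), neither past the threshold. Its intervals of 1.96 SE either side ran from -0.58 to 1.26 over wildtype and from -0.17 to 1.99 over Myc. Ereg had 2, 8, 2 and 0 counts in Grhl2KO_Myc, 0, 4 and 0 counts in Myc and 0, 2, 3, 0 and 0 counts in wildtype, too few to pass the filter.

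**Figure D2:**
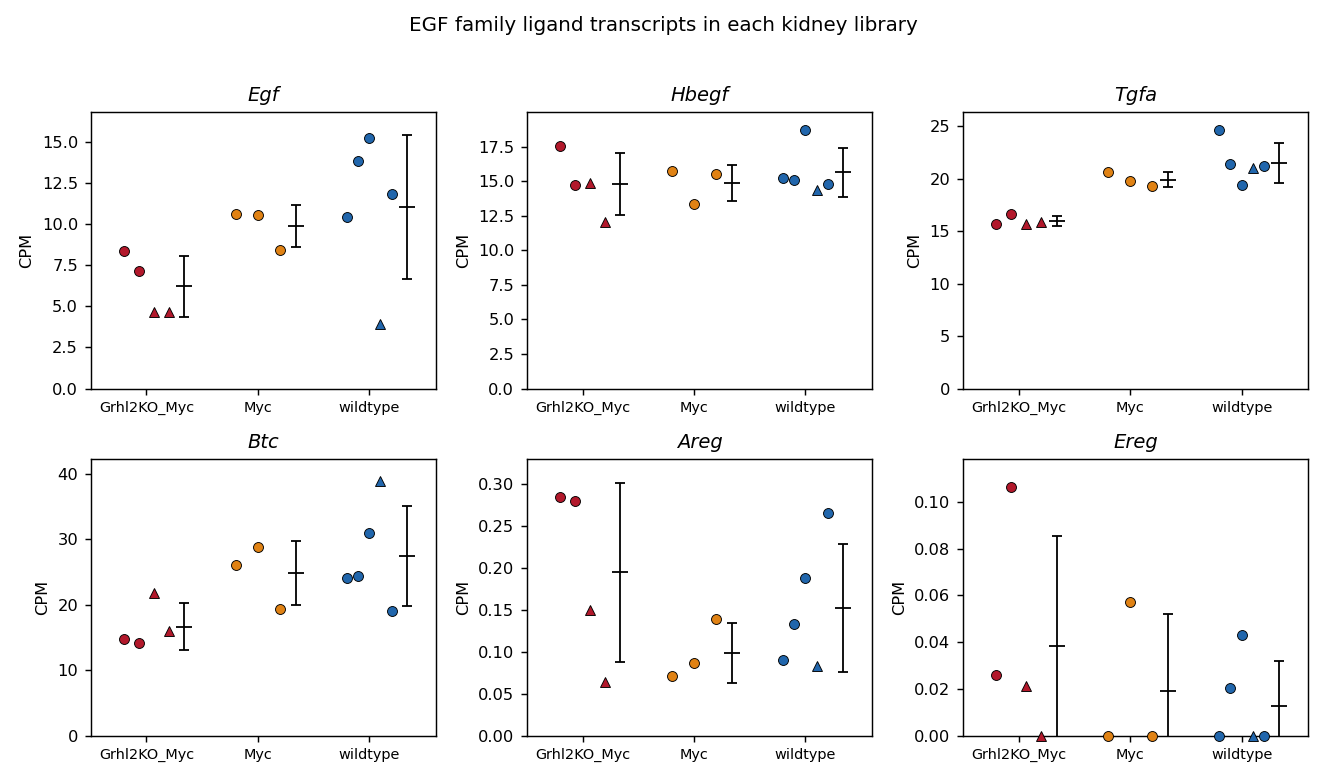
TMM-scaled CPM of the ligand genes in each library (y axis, from 0) by group (x axis). Points are libraries, triangles the 3 libraries low in proximal tubule transcripts, and the bar beside each group is the mean ± SD. Tgfa lies between 15.6 and 16.6 CPM in Grhl2KO_Myc, and Egf is lowest in the triangles.

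**Figure D3:**
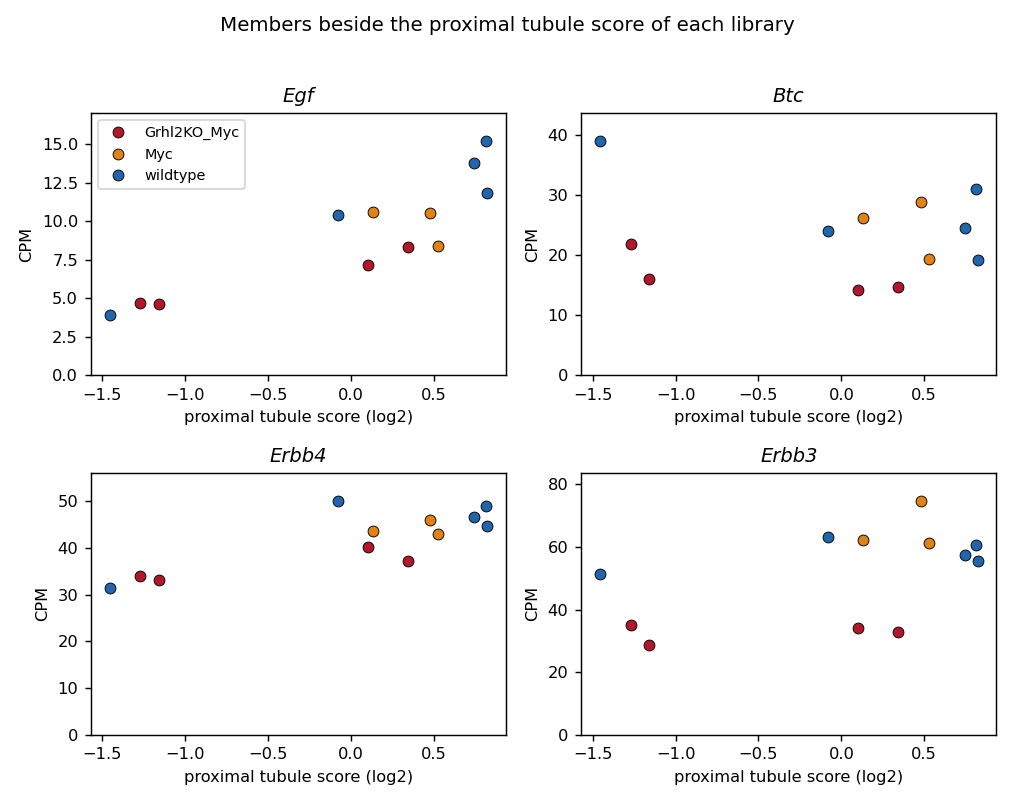
CPM of Egf, Btc, Erbb4 and Erbb3 (y axes, from 0) against the proximal tubule score of the same library (x axis, mean log2 CPM of 15 markers relative to the 12 libraries), 1 point per library. Egf and Erbb4 are low in all 3 libraries with a score of -1.16 or below, Btc is highest in 1 of them, and Erbb3 is low in every Grhl2KO_Myc library whatever its score.

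Between Myc and wildtype 0 of the 9 tested members passed, and for 0 of them did all Myc libraries lie outside the wildtype range. Of all genes 0.00421% were called there, and 3.57% did not overlap, 2.22% higher and 1.34% lower in Myc. At an unadjusted p under 0.05 there was 1 member, Erbb3, by edgeR, and DESeq2 and limma-voom called 0 members each. The intervals of 1.96 SE either side differed in width between members. Erbb2 gave a log2 fold change of 0.03 (-0.09 to 0.15), Tgfa -0.11 (-0.26 to 0.03), Egfr -0.02 (-0.26 to 0.22) and Erbb4 0.00 (-0.25 to 0.24). Hbegf gave -0.07 (-0.31 to 0.16). The interval of Erbb3, at 0.19 (0.02 to 0.37), left out 0. The intervals of Egf (-0.83 to 0.51) and Btc (-0.58 to 0.28) were wider.

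**Figure D4:**
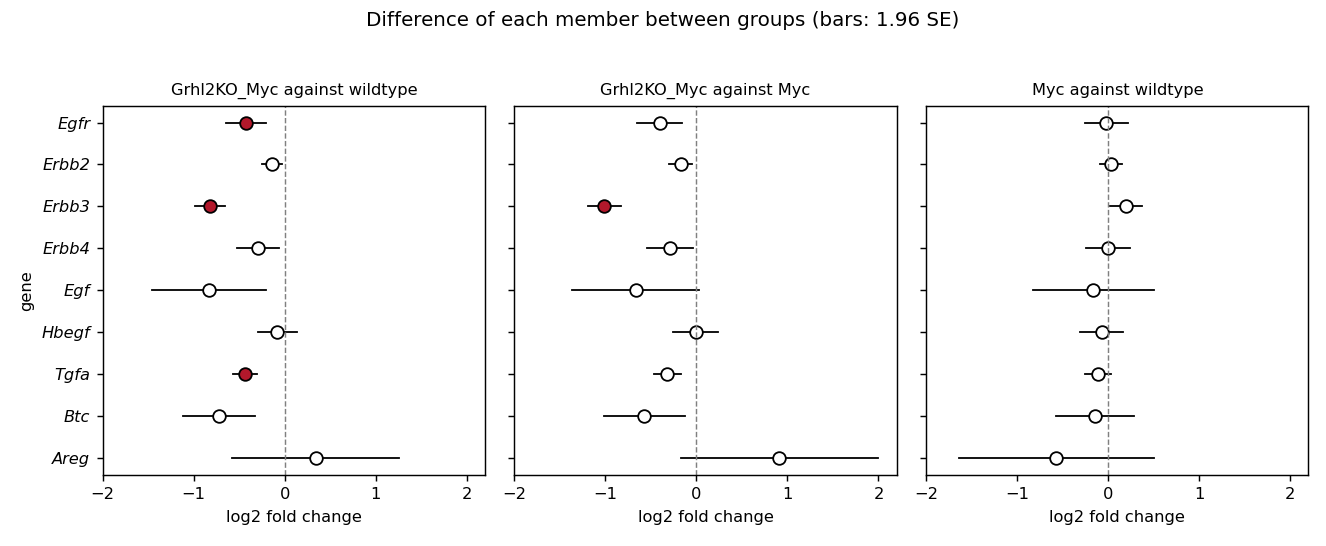
Log2 fold change (x axis, first group over second) of the 9 tested members (y axis) in each comparison, with bars of 1.96 SE. Filled points passed an adjusted p of 0.05, which were Erbb3, Tgfa and Egfr for Grhl2KO_Myc over wildtype and Erbb3 for Grhl2KO_Myc over Myc.

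Levels were compared between genes as CPM per kb of the gene width that the authors deposited. Erbb2 was the most abundant receptor, at 19.5 ± 1.62 CPM per kb in Grhl2KO_Myc, 21.9 ± 0.408 in Myc and 21.4 ± 0.991 in wildtype. Erbb3 followed at 5.43 ± 0.466 CPM per kb in Grhl2KO_Myc, 10.97 ± 1.26 in Myc and 9.59 ± 0.769 in wildtype. Erbb4, at 2.92 ± 0.257, 3.58 ± 0.127 and 3.58 ± 0.609 CPM per kb in that order of groups, and Egfr, at 1.42 ± 0.156, 1.88 ± 0.272 and 1.91 ± 0.235, came last. This order held in each group, with no overlap between neighbours in any of them. The receptors summed to 28.1 to 30.7 CPM per kb in Grhl2KO_Myc, 37.0 to 40.7 in Myc and 35.2 to 38.3 in wildtype. Erbb3 made up 18.6% ± 1.72 of that sum in Grhl2KO_Myc, 28.6% ± 1.70 in Myc and 26.2% ± 1.43 in wildtype, and Erbb2 made up 66.5% ± 3.39, 57.2% ± 1.96 and 58.8% ± 3.38.

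Among the ligands Hbegf and Btc had the highest levels per length, at 6.24 ± 0.948 and 3.68 ± 0.785 CPM per kb in Grhl2KO_Myc, and in wildtype at 6.59 ± 0.737 and 6.07 ± 1.69. Their ranges overlapped in Myc and in wildtype, but not in Grhl2KO_Myc. The deposited width of Hbegf is 49.1% of its exons in the GENCODE M21 annotation, while those of the other 9 members are equal to it. With the GENCODE exons Hbegf would stand at 3.06 CPM per kb in Grhl2KO_Myc and 3.23 in wildtype, below Btc in both. By deposited width Tgfa came next, at 2.46 ± 0.0719 CPM per kb in Grhl2KO_Myc and 3.32 ± 0.294 in wildtype, and with the GENCODE exons Tgfa stands above Hbegf in wildtype and below it in Grhl2KO_Myc. Egf stood at 0.551 ± 0.164 in Grhl2KO_Myc and 0.978 ± 0.388 in wildtype, or at 1.30 and 2.32 CPM per kb of its transcript with the longest coding part, which is 4761 bases against a deposited width of 11275. Areg was at 0.160 ± 0.0881 CPM per kb in Grhl2KO_Myc and 0.125 ± 0.0624 in wildtype, and Ereg was lowest in each group.

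**Figure D5:**
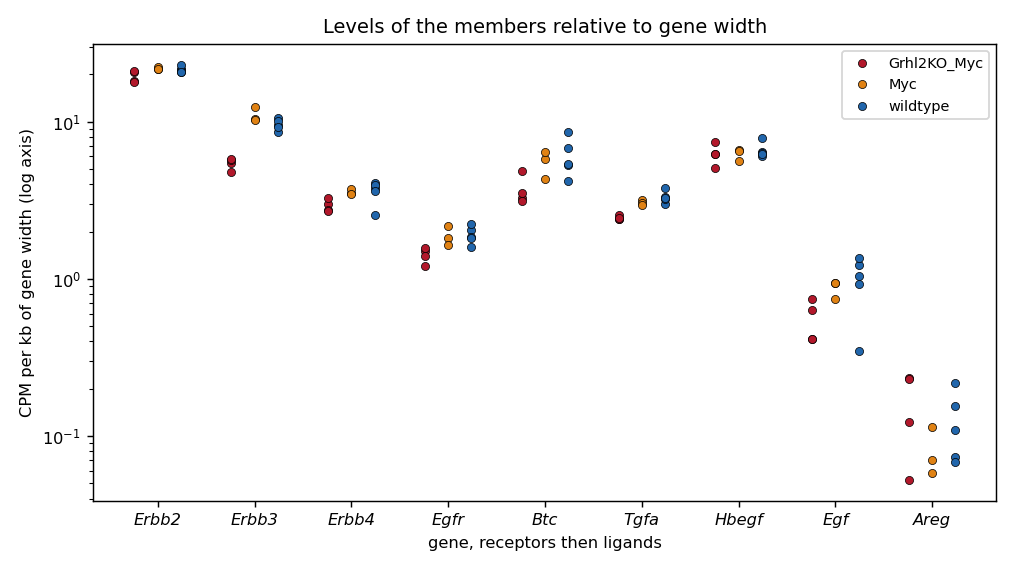
CPM per kb of deposited gene width (y axis, log axis) of 9 members (x axis, Ereg left out because several libraries were at 0), 1 point per library. Erbb2 lies highest, Areg lowest, and the Grhl2KO_Myc points of Erbb3, of Egfr and of Tgfa stand below those of the other groups.

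Of the other genes of the pathway, 5 passed in Grhl2KO_Myc over wildtype, each lower. Of the neuregulins and epigen, the ligands outside the 10 members, 4 of 5 were tested and 0 passed in any comparison (edgeR, with 0, 0 and 1 at an unadjusted p under 0.05 for Grhl2KO_Myc over wildtype, Grhl2KO_Myc over Myc and Myc over wildtype, and 0 by DESeq2 and by limma-voom). Nrg4, a ligand of ErbB4, was the best measured at 10.8 ± 0.673 CPM in Grhl2KO_Myc, 10.4 ± 0.557 in Myc and 10.7 ± 0.570 in wildtype, and Nrg1, a ligand of ErbB3 and ErbB4, was at 0.720 ± 0.104, 0.706 ± 0.132 and 0.904 ± 0.165 CPM. Of 9 genes of ligand shedding and traffic 0 passed in any comparison (edgeR, with 3, 1 and 0 at an unadjusted p under 0.05 in the same order, and 0 by the other tools). Without wildtype 4, 3 of them passed against wildtype, 2 lower and 1 higher in Grhl2KO_Myc (Adam17, Cnih1 and Tspan12). Among them the sheddase genes Adam10 and Adam17 were at 170 ± 12.9 and 71.2 ± 0.691 CPM in Grhl2KO_Myc, and at 176 ± 6.26 and 75.5 ± 7.76 CPM in wildtype.

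Of 20 genes of feedback inhibition and receptor turnover, 1 was lower and 0 were higher in Grhl2KO_Myc than in wildtype, with a median log2 fold change of -0.03. This was Eps15, an endocytosis adaptor (71.4 ± 1.49 against 79.7 ± 3.22 CPM, edgeR adjusted p = 0.0399). Of 30 adaptor, Ras-MAPK and PI3 kinase genes, 2 were lower and 0 higher (median -0.03), the transcription factor gene Stat5b (36.5 ± 1.09 against 43.4 ± 2.00 CPM, adjusted p = 0.00695) and the adaptor gene Gab2 (50.8 ± 1.07 against 62.6 ± 5.28 CPM, adjusted p = 0.0138). Of 12 genes that MAPK signalling induces, 1 was lower and 0 higher (median 0.14), Ccnd1, which encodes cyclin D1 (295 ± 21.3 against 365 ± 21.8 CPM, adjusted p = 0.0268). Of 12 magnesium handling genes, 1 was lower and 0 higher (median -0.14), Fxyd2, a regulator of the sodium pump (274 ± 32.0 against 355 ± 38.5 CPM, adjusted p = 0.0321). Trpm6, the magnesium channel gene tied to EGF, was at 5.45 ± 1.24 CPM in Grhl2KO_Myc and 7.54 ± 1.04 CPM in wildtype (edgeR adjusted p = 0.0751). DESeq2 called Trpm6 and Trpm7 lower in Grhl2KO_Myc than in wildtype. These counts stand beside the 6.67% of all genes called. The total of 5 became 13 with DESeq2, 16 without wildtype 4 and 2 without Grhl2KO_Myc 3 or without wildtype 2. Not all of the 13 and 16 were lower in Grhl2KO_Myc. With DESeq2, Fos, Phlda1 and 1 adaptor, Ras-MAPK or PI3 kinase gene were higher. Without wildtype 4, Cnih1 and 2 genes of that adaptor list were higher. In Grhl2KO_Myc over Myc and in Myc over wildtype 0 genes of these 4 lists passed (edgeR). In the order of the lists above, 6, 2, 4 and 2 genes were at an unadjusted p under 0.05 in Grhl2KO_Myc over Myc, and 3, 1, 0 and 0 in Myc over wildtype. Of those over Myc, 3, 1, 4 and 0 were higher in Grhl2KO_Myc, and those over wildtype were all lower in Myc. DESeq2 called 4 in Grhl2KO_Myc over Myc, Dusp6 and Spry2 higher and Cblc and Fxyd2 lower in Grhl2KO_Myc. It called 0 in Myc over wildtype, and limma-voom called 0 in both.

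The genes whose log2 CPM ran most like that of a member over the 12 libraries were taken as a description, among 14451 genes at 1 CPM or more on average. For Erbb3 they included Naaladl2 and Ppp1r36, with a Pearson correlation of 0.99 and 0.977. For Egf they were Ces1e, Itga1 and Slc18b1 (0.981, 0.98 and 0.98), for Tgfa Lhx1, Kremen1 and Tacr1 (0.957, 0.951 and 0.95) and for Egfr Mfsd4, Phc3 and Fap (0.968, 0.954 and 0.954). The libraries share group, depth and the low proximal tubule transcripts of 3 of them.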

How the data were processed

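Polyadenylated RNA of the entire right kidney was sequenced in 12 libraries made with the TruSeq RNA kit v2, which does not mark strand, per the labels' protocols. Reads were aligned with HISAT2 to mm10, per the submitters' processing notes. Counting program and annotation were not given in the sources used here. Raw counts, and gene widths in bases, were deposited by the authors in 1 table of 46403 genes, and columns were matched to samples by the identifier in the titles. Counts lay between 52973520 and 108164810 per library, and 0 columns belonged to other samples.

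Counts were tested with edgeR 4.0.16 (R 4.3.3) with TMM scaling, its default filter and the quasi-likelihood F test, with all 12 libraries in 1 fit, 1 coefficient per group and no covariate. Adjustment (Benjamini-Hochberg) ran over all 23742 tested genes, with calls at an adjusted p under 0.05. Each SE is the size of the log2 fold change over the square root of F. An interval of 1.96 SE either side is somewhat narrower than one from the F test itself. Replicates of a group differed by a chi-square of at least 13.5 per degree of freedom, so each counted as 1 sample. All 10 members were named, from each pathway list up to 4 called genes, and for called members, Egf and Egfr the 3 most correlated genes without numbered gene models, of which 1 is not reported here. Nrg1, Nrg4, Adam10, Adam17, Trpm6, single cell type markers and the genes called only under an alternative were named after their values were seen. The members and lists were chosen with earlier results of these data known. Positions come from GENCODE M21 (mm10), in which 90.6% of the gene names were found. Alternatives were other scalings and filters, DESeq2 1.42.0, limma-voom (limma 3.58.1), other sets of libraries and added terms.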

Additional observations from a re-analysis of the deposited data

Results flagged for a closer look

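Within their groups, 2 of 20 sets of values had a library far from the others, where chance gives about 1 in 20. Hbegf was at 18.7 CPM in wildtype 3, where the nearest wildtype library was at 15.2 CPM. Erbb4 was at 31.3 CPM in wildtype 4, where the nearest was at 44.7 CPM, and wildtype 4 is also the wildtype library low in proximal tubule transcripts.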

How the results depend on the processing

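Each result was recomputed under 23 alternatives, of which 12 left out 1 library. The calls of Erbb3 (both comparisons) and of Tgfa against wildtype held under all 23. The call of Egfr against wildtype was lost under 13, among them no filter (adjusted p = 0.0566), only the groups compared (0.0543), a term for sex read from Ddx3y (0.0814, with Grhl2KO_Myc 3 classed by its absence), the proximal tubule score (0.0605) and the 3 libraries low in proximal tubule transcripts left out together (0.0859). The 3 members called against wildtype became 6 without those 3 libraries and 2 to 5 with single libraries left out, 5 of them without wildtype 4. The 1 member called against Myc became 2 with DESeq2, with only the groups compared, with the proximal tubule score and without the 3 libraries, and 1 to 3 with single libraries left out, 3 of them without wildtype 4. The cause was not tested. For Areg, which the filter removed in some alternatives, 20 to 22 gave a value. Genes called among all numbered 750 (without Grhl2KO_Myc 4) to 3778 (without wildtype 4) where 1584 were reported, 70 (without Myc 2) to 777 (DESeq2) where 200 were, and 0 to 44 (DESeq2) where 1 was.

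Directions turned only for members that did not pass. For Grhl2KO_Myc over wildtype, Hbegf became 0.013 without the 3 libraries and lay between -0.18 and 0.0075 with single libraries left out. Over Myc, Hbegf became 0.0048 with upper-quartile scaling, 0.083 with the proximal tubule score, 0.057 with the replicate block and 0.11 without the 3 libraries, and -0.11 to 0.079 with single libraries left out. For Myc over wildtype, Erbb4 became 0.0039 with no filter, 0.017 with limma-voom and 0.0016 with the term for sex, and Btc 0.0079 without the 3 libraries. With single libraries left out Erbb4 lay between -0.11 and 0.044, Btc between -0.27 and 0.0089, Egfr between -0.14 and 0.070 and Hbegf between -0.11 and 4.4e-05.

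Same-numbered replicates of different groups correlated between -0.11 and 0.23 in their deviations, and in 7 of 20 checks of a library against another group its best match had its own number, so the numbers were not taken as pairs. With the replicate block 3, 1 and 0 members were called, as without it, and 993, 88 and 0 genes among all.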
